A study of Mus musculus with 24 samples.

Results

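The nuclear pore and nuclear transport genes made up 42 of the 6970 mouse genes that were read by at least 1 probe carrying exactly 1 gene symbol in the platform annotation. The rule that picks them uses gene symbols and no measured value, and it gave 16 importins (the Kpna, Kpnb, Ipo and Tnpo genes), 7 exportins and RNA export receptors (the Xpo, Nxf and Nxt genes and Cse1l), 11 pore proteins (the Nup genes and Rae1) and 8 genes of the Ran cycle (Ran, Rcc1, Rangap1 and the Ranbp genes). Of these, 28 were among the 3838 genes of slide type 1, 20 among the 4075 genes of slide type 2, and 6 were on both. The import factor gene Nutf2 and the nuclear basket gene Tpr were also named by the choice and were not analysed here.

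Traffic between nucleus and cytoplasm passes through nuclear pores, large rings of nucleoporins set in the nuclear envelope. Importins bind cargo in the cytoplasm and release it in the nucleus when they meet Ran in its GTP form, whereas exportins bind cargo together with that form and release it once the GTP is hydrolysed in the cytoplasm. Heat shock is known to disturb this traffic: classical import slows and importin alpha builds up in the nuclei of stressed cells, while Hsp70 is carried in by its own adaptor.

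Heat-shocked embryos were mouse embryos in culture that were kept at 43 °C for 15 min and then for 1 h at 37 °C. Control embryos stayed at 37 °C, and no strain, age or number of embryos per RNA preparation is given in the sources used here. Total RNA of both was hybridised together on 24 arrays with 2 channels, from 3 numbered treatments, each on 2 slide types that carry different probes. A treatment had 4 arrays per slide type, 2 for each assignment of the RNAs to the channels, and their average gave both assignments equal weight.

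All values below are log ratios of heat-shocked to control RNA, given in log units because the base of the log is not stated. One unit would be a difference of 2-fold with base 2 and of 2.72-fold with the natural log. The numerator of the deposited ratio is not stated either, so the direction is unsettled. The positive side means higher in heat-shocked embryos if the ratio is channel 1 over channel 2, and higher in control embryos if it is the reverse. With the sign mirrored, positive and negative would trade places, and all sizes and counts would stay. On the side taken as positive lay the chaperone genes Hsph1 and Hspb1, both known to be induced by heat. Hsph1 was at 1.90, 2.85 and 2.10 in treatments 1, 2 and 3 on slide type 1, and Hspb1 at 2.18, 2.28 and 2.24 on slide type 2. Over all probes, the lowest correlation between arrays of the same channel order was 0.29 on slide type 1 and −0.34 on slide type 2. After averaging, the treatments of slide type 1 correlated across genes at 0.57 to 0.70 and those of slide type 2 at 0.79 to 0.89, over genes that are not independent replicates. A gene was called when its limma adjusted p, over all genes of its slide type, was under 0.05 for a mean different from 0. Whether the 3 treatments came from separate litters is not stated, so p-values reach no further than the spread between these treatments. Their number limits the precision. In limma the spread of each gene is drawn toward that of all genes of the slide type. A call therefore does not rest on the gene's own 3 values alone, and genes with a wide SD can be called.

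A log ratio gives no level, so the embryos could not be checked against markers of their tissues. Of 7 lists of cell type markers, 11 genes were measured on slide type 1, with the neural tubulin Tubb3 called at −0.21, and 5 on slide type 2, with the collagens Col1a1 and Col3a1 called at −0.60 and −0.35. Over all genes, 5.65% were called negative on slide type 1 and 31.9% on slide type 2. List medians ran from −0.20 (Hand1 alone) to 0.11 (Pdgfra alone) on slide type 1. On slide type 2 they ran from −0.47 (the 2 collagens) to −0.12 (3 erythroid genes). Pdgfra, not called, was from the same list as the collagens. The part of these markers in the values below was not tested. In whole embryos, fewer cells of a type and less RNA per cell cannot be told apart.

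Most of the transport machinery read on slide type 1 lay close to the bulk of genes, with a few members far from it, and the genes of slide type 2 lay lower. On slide type 1, 2 of 28 genes were called on the positive side (7.14%, against 5.73% of all genes) and 4 on the negative side (14.3%, against 5.65%), and the other 22 were not called. The median of the 28 was −0.041, beside −0.038 over all genes. Slide type 2 had 2 of 20 called on the positive side (10%, against 18.5% of all genes) and 12 on the negative side (60%, against 31.9%), with a median of −0.16 beside −0.049 over all genes. The importin genes Ipo7 and Kpna2 stood farthest out on slide type 1, on opposite sides, and Tnpo1, Ran and Xpo5 had the lowest values on slide type 2. By role, the medians on slide type 1 were −0.032 for 12 importins, −0.073 for 4 exportins, 0.012 for 7 pore proteins and −0.099 for 5 Ran cycle genes. On slide type 2 they were −0.19 for 7 importins, −0.14 for 4 exportins, −0.14 for 6 pore proteins and 0.14 for 3 Ran cycle genes. These 3, grouped by symbol, were Ran (−0.38), Ranbp2 (0.14) and Ranbp9 (0.27). Importins had the lowest median of the 4 roles on slide type 2, Ran cycle genes on slide type 1, and the roles were not tested against each other. Every value is relative to the median of its array. Leaving the arrays uncentred added 0.30 to the mean of each gene of slide type 1 and 0.083 to that of each gene of slide type 2. It also left the differences between arrays in the values. Array medians ran from −0.17 to 0.67 on slide type 1 and from −1.51 to 1.28 on slide type 2. Uncentred, all 4 negative calls of slide type 1 and all 14 calls of slide type 2 were lost, and Cse1l, Nup153 and Ranbp3 lay on the positive side. Centring on probes with 1 symbol turned the lean of slide type 2 round over all genes, with 30.7% called positive and 21.1% negative, and gave 4 positive and 7 negative calls among the 20. The 14 calls of slide type 2 were also lost with either channel order alone, where at most 1.08% of all genes were called on a side.

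**Figure D1:**
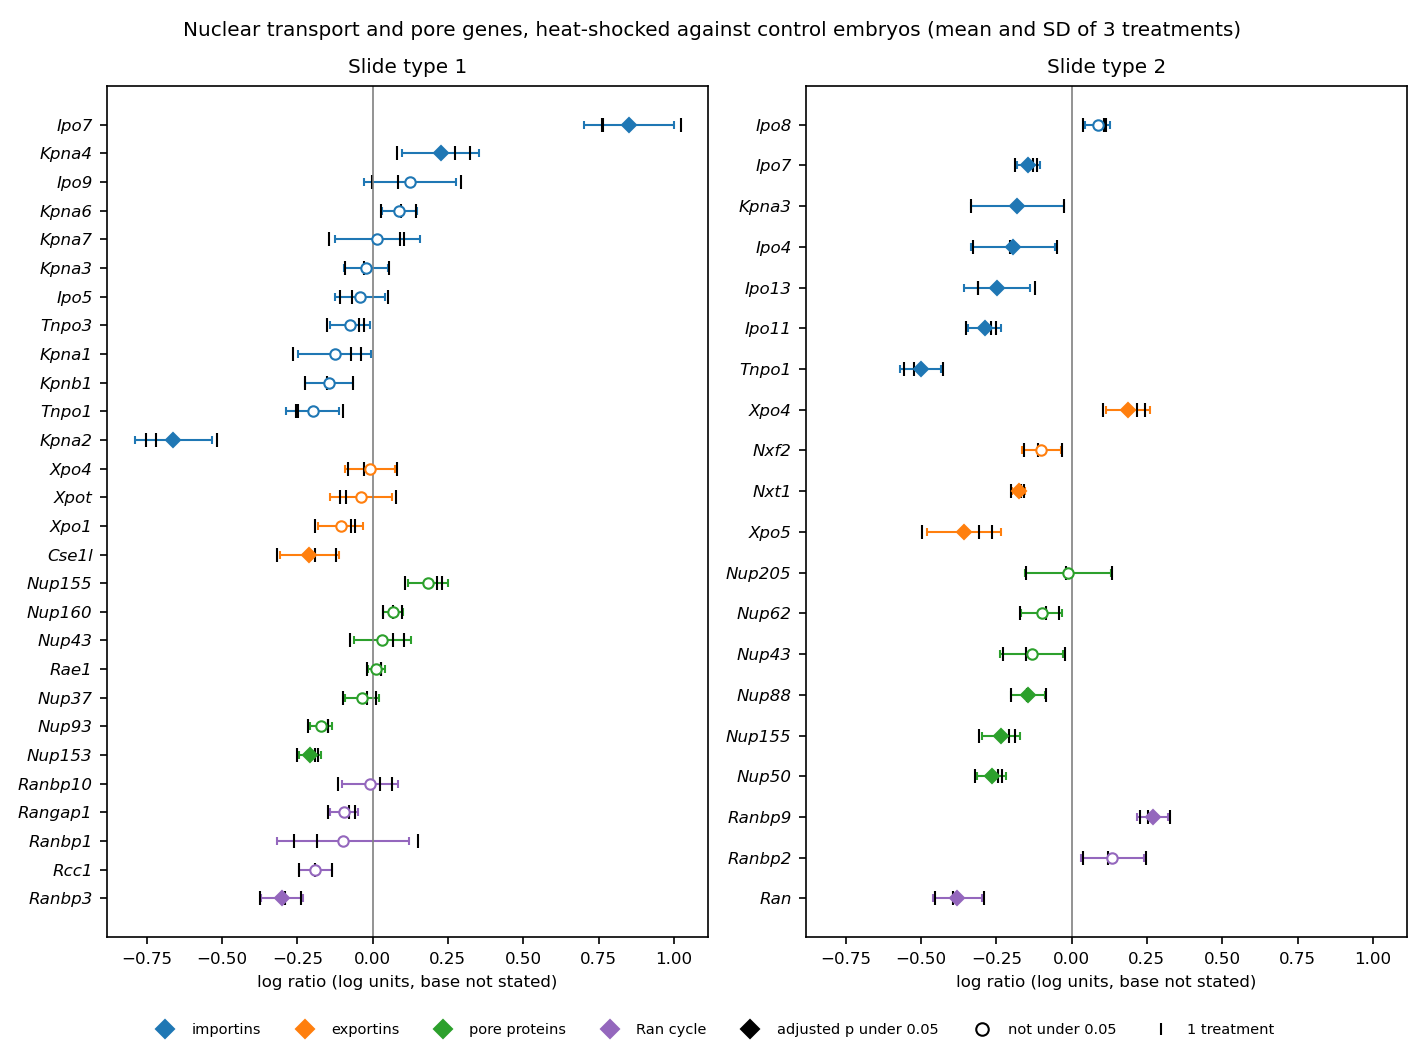
Log ratio (horizontal axis, log units with the base not stated) of each of the 28 genes on slide type 1 and the 20 on slide type 2, grouped by role and ordered by mean within it. Symbols give the mean and bars the SD of 3 treatments, filled diamonds mark an adjusted p under 0.05, and black ticks are the single treatments. Ipo7 at 0.85 and Kpna2 at −0.66 lie apart from the other genes of slide type 1, while 12 of the 20 genes of slide type 2 are called on the negative side.

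The Ran cycle supplies direction to the whole system. Ran itself, the small GTPase, had log ratios of −0.40, −0.45 and −0.29 in treatments 1, 2 and 3, so that all 3 lay on the negative side and close together. Its mean on slide type 2 was −0.38 ± 0.08 (SD, n = 3, limma adjusted p = 9.75e-05), and its 2 probes each had −0.38. Single arrays were much wider apart than the treatments, from −1.33 to 0.47 with a median of −0.37. Both extremes came from treatment 2, where heat-shocked RNA in channel 1 gave 0.47 and 0.32 and in channel 2 gave −1.33 and −1.27. Ranbp3, a cofactor that helps the exportin Xpo1 load its cargo, had −0.38, −0.29 and −0.24 on slide type 1, a mean of −0.30 ± 0.07 (limma adjusted p = 0.0079). It was on the negative side in all 12 arrays of its slide type, between −0.57 and −0.13. The call of Ranbp3 ended without treatment 1.

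Rcc1, Rangap1 and Ranbp1, read on slide type 1, were nearer to 0. Rcc1, the exchange factor that loads Ran with GTP on chromatin, had −0.25, −0.19 and −0.13, all on the same side but not called (−0.19 ± 0.06, limma adjusted p = 0.0556). Rangap1, which triggers GTP hydrolysis at the cytoplasmic face, had −0.15, −0.06 and −0.08 (limma adjusted p = 0.341). Ranbp1, its soluble helper, had −0.19, −0.26 and 0.15, and the treatments lay on both sides of 0 (−0.10 ± 0.22, limma adjusted p = 0.501). Ranbp2, the large protein of the cytoplasmic filaments, had 0.25, 0.04 and 0.12 on slide type 2 (limma adjusted p = 0.0682), with −0.17 for heat-shocked RNA in channel 1 and 0.44 in channel 2. Ranbp9, placed in this group by its symbol, was called on the positive side, at 0.33, 0.25 and 0.23 (0.27 ± 0.05, limma adjusted p = 0.00131). Despite its name Ranbp9 is a scaffold of a ubiquitin ligase complex, as is its relative Ranbp10, which had −0.01 ± 0.09 on slide type 1 (limma adjusted p = 0.958).

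Among importin alpha genes, the adaptors that recognise classical import signals, Kpna2 had the lowest values. They were −0.75, −0.72 and −0.52 in treatments 1, 2 and 3, and its 2 probes on slide type 1 each had −0.66. The mean of −0.66 ± 0.13 (limma adjusted p = 0.000142) was lower than that of all but 0.182% of genes on the slide type. Every one of the 12 arrays lay on the negative side, from −0.93 to −0.38, with −0.59 for heat-shocked RNA in channel 1 and −0.74 in channel 2. Kpna4, another importin alpha, was on the opposite side in each of the 12 arrays, between 0.01 and 0.49, with 0.08, 0.32 and 0.27 by treatment. Its mean of 0.23 ± 0.13 passed narrowly (limma adjusted p = 0.0474), and the call ended when any 1 treatment was left out. Kpna1, Kpna6 and Kpna7 had means between −0.13 and 0.09 and were not called. Kpna3 had 0.05, −0.09 and −0.03 on slide type 1 (limma adjusted p = 0.875) and −0.03, −0.18 and −0.34 on slide type 2, where it was called (−0.18 ± 0.15, limma adjusted p = 0.0279) but not without treatment 3. Kpnb1, importin beta, which carries these adaptors and their cargo through the pore, had −0.15, −0.22 and −0.06, with 3 probes between −0.19 and −0.10 (limma adjusted p = 0.149).

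Ipo7, a carrier of ribosomal proteins and histone H1, gave the largest value of any member, and it came from 1 of 2 probes. By treatment it had 0.77, 0.76 and 1.02 on slide type 1, a mean of 0.85 ± 0.15 (limma adjusted p = 4.25e-05), higher than 99.6% of genes there. All 12 arrays were on the positive side, from 0.57 to 1.13. One probe had 1.61, 1.52 and 2.02, whereas the other had −0.08, 0.00 and 0.02. The only probe of Ipo7 on slide type 2 had −0.13, −0.19 and −0.12, on the negative side (−0.14 ± 0.04, limma adjusted p = 0.0434, a call that ended when any 1 treatment was left out). Thus 1 of 3 probes for this gene stood far on the positive side and the other two lay near 0 or below it. Ipo8, the closest relative of Ipo7, had 0.04, 0.11 and 0.11 (0.09 ± 0.04, limma adjusted p = 0.21).

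Tnpo1, or transportin, which imports hnRNP proteins, had means below 0 on either slide type. Its probe on slide type 2 had −0.52, −0.56 and −0.43, the lowest mean of the 20 genes there (−0.50 ± 0.07, limma adjusted p = 5.1e-06). On slide type 1 it had −0.25, −0.25 and −0.10 and was not called (−0.20 ± 0.09, limma adjusted p = 0.0559), although all 12 arrays were below 0. Its 3 probes on slide type 1 had −0.24, −0.38 and 0.02, so that one of them lay at 0. Tnpo3, which imports SR splicing factors, had −0.08 ± 0.07 (limma adjusted p = 0.456).

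The remaining importins of slide type 2 lay on the negative side. Ipo11, which imports ubiquitin-conjugating enzymes, had −0.25, −0.35 and −0.27 (−0.29 ± 0.05, limma adjusted p = 0.000764), over probes at −0.17 and −0.41. Ipo13, which works in both directions, had −0.31, −0.31 and −0.12 (−0.25 ± 0.11, limma adjusted p = 0.00344). Ipo4, a histone importer, had −0.05, −0.33 and −0.20 (−0.19 ± 0.14, limma adjusted p = 0.0178), and lost its call without treatment 2 or without treatment 3. On slide type 1 the histone and ribosomal protein importers Ipo5 and Ipo9 were not called, with −0.04 ± 0.08 and 0.13 ± 0.15.

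**Figure D2:**
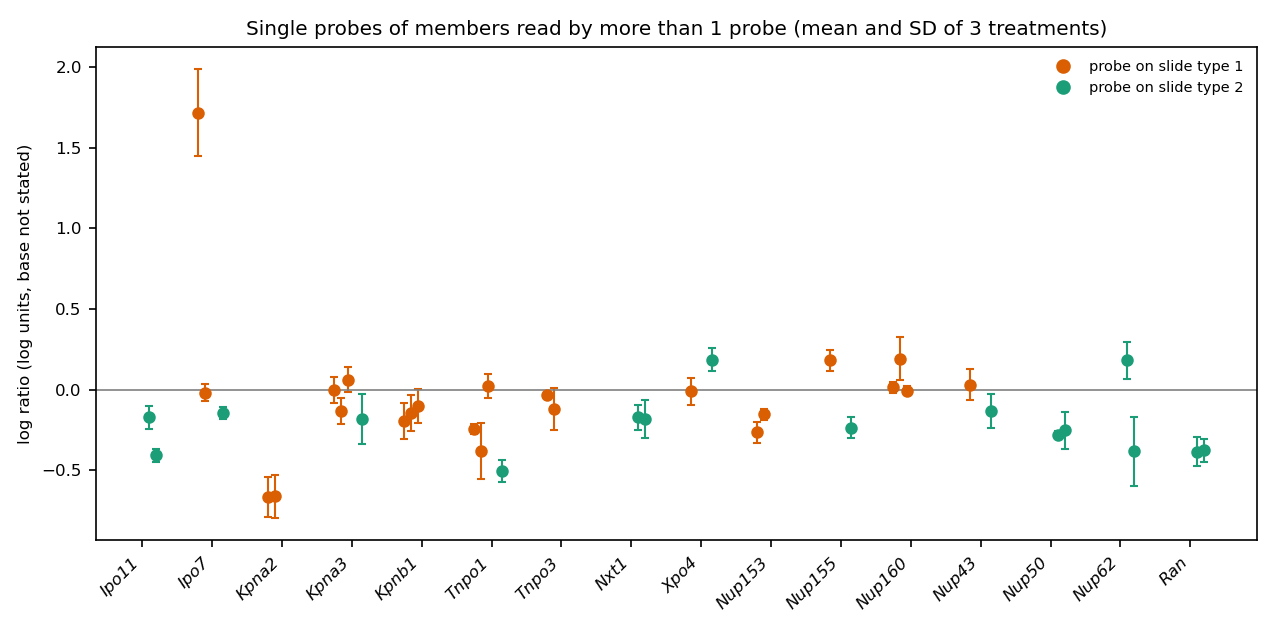
Log ratio (vertical axis, log units with the base not stated) of every probe of the genes read by more than 1 probe. Points are means and bars SDs of 3 treatments, coloured by slide type. One Ipo7 probe lies at 1.72 and the other two near 0 or below it, the paired probes of Kpna2 and of Ran coincide, and the Nup62 probes lie on opposite sides of 0.

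The start regions of the genes at the edges of these ranges are shown so that their sequence can be read beside the values. Promoter windows from RefSeq on GRCm38.p6 were found for 34 of the 42 genes, with 41 windows running from 250 bases before to 50 after a transcription start. Capitals in the 250 bases before the start of Ipo7 and Tnpo1 mark GAANNTTC, the inverted repeat of GAA found in heat shock elements. In Kpna2 they mark CCAAT, and in Ran the GC box GGGCGG, here as CCGCCC from the opposite strand.
Ipo7, chr7:110018065-110018314, plus strand: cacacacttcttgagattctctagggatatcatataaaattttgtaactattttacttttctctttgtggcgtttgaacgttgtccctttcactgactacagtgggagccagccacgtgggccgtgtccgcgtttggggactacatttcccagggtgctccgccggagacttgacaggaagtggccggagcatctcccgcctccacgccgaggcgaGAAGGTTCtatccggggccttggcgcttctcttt
Tnpo1, chr13:98926385-98926634, minus strand: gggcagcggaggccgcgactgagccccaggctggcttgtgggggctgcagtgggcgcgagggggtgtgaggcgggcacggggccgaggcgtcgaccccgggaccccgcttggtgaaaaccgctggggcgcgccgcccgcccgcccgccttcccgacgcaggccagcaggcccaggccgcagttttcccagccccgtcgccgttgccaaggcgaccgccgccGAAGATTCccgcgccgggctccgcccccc
Kpna2, chr11:106999526-106999775, minus strand: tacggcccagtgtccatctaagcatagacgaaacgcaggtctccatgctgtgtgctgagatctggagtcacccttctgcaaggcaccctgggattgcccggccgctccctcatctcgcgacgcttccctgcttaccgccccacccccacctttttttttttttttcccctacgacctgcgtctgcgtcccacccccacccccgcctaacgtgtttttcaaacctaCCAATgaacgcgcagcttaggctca
Ran, chr5:129019906-129020155, plus strand: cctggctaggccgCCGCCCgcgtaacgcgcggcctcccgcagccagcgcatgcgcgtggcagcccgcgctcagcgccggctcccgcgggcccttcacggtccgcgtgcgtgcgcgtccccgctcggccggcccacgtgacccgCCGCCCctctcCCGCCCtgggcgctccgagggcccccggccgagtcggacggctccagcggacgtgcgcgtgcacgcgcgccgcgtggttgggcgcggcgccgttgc

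Read on both strands, GAANNTTC was in 2 of the 41 windows (4.88%), those of Ipo7 and Tnpo1, and in 7.86% of all 32851 windows of the genome. Ipo7 and Tnpo1 carried it 34 and 29 bases before the start. Their means lay on opposite sides on slide type 1 (0.85 and −0.20, the latter not called). On slide type 2 both were called on the negative side (−0.14 and −0.50). A part of the element in these values was not tested. TTCNNGAA, the other arrangement of the repeat, which can overlap the first, was in 8.52% of all windows and in 0 of the 41, and 15.1% of all windows had either. CCAAT was in 21 of 41 windows (51.2%, against 37.4% of all) and GGGCGG in 26 of 41 (63.4%, against 35.7%), with 3 GC boxes shown for Ran. TTTGAA, the core of an element found in cell cycle genes, was in 10 of 41 (24.4%, against 17.9% of all). A match describes these letters only, and an absent one says nothing of the factor.

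Exportins were called on both sides. Xpo5, the exporter of microRNA precursors, had −0.27, −0.50 and −0.31 in treatments 1, 2 and 3 on slide type 2 (−0.36 ± 0.12, limma adjusted p = 0.000251). All 3 treatments were on the negative side, but the 12 arrays ran from −1.30 to 0.30, with 0.05 for heat-shocked RNA in channel 1 and −0.77 in channel 2. Xpo4, which exports the translation factor eIF5A, was called on the positive side of slide type 2 at 0.22, 0.10 and 0.24 (0.19 ± 0.07, limma adjusted p = 0.0139), with −0.30 in one channel order and 0.67 in the other, and not without treatment 1 or without treatment 3. On slide type 1 its probe had −0.03, 0.08 and −0.08 (−0.01 ± 0.08, limma adjusted p = 0.953). Cse1l, which returns importin alpha to the cytoplasm, had −0.32, −0.19 and −0.12 on slide type 1 (−0.21 ± 0.10, limma adjusted p = 0.0494), and was no longer called when treatment 1 or 2 was left out. Xpo1, the main exporter of proteins with leucine-rich export signals, had −0.19, −0.06 and −0.07 and was not called (−0.11 ± 0.07, limma adjusted p = 0.296). Xpot, the tRNA exporter, had −0.04 ± 0.10 (limma adjusted p = 0.761). Of the mRNA export receptor genes, Nxt1 had −0.16, −0.20 and −0.17 (−0.18 ± 0.02, limma adjusted p = 0.0165, not called without treatment 1 or without treatment 3) and Nxf2 −0.16, −0.11 and −0.03 (limma adjusted p = 0.15).

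The 4 calls among pore proteins lay on the negative side. On slide type 1 this was Nup153, 1 of 7 (14.3%, against 5.65% of all genes). On slide type 2 these were Nup50, Nup88 and Nup155, 3 of 6 (50%, against 31.9% of all genes). Nup153, which anchors the nuclear basket, had −0.18, −0.25 and −0.19 on slide type 1 (−0.21 ± 0.04, limma adjusted p = 0.0363), over probes at −0.26 and −0.15. Its 3 treatments lay close together, but the channel orders gave 0.03 (heat-shocked RNA in channel 1) and −0.44 (channel 2), and the call ended when any 1 treatment was left out. Nup50, its mobile partner, had −0.25, −0.32 and −0.23 on slide type 2 (−0.27 ± 0.05, limma adjusted p = 0.00139), over probes at −0.28 and −0.25. Nup88, at the cytoplasmic face, had −0.09, −0.20 and −0.15 (−0.14 ± 0.06, limma adjusted p = 0.0446), and leaving out any 1 treatment ended that call. Its channel orders gave 0.18 (heat-shocked RNA in channel 1) and −0.47 (channel 2), and 6 of its 12 arrays lay on each side.

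Among the inner ring proteins only Nup155 was called, on slide type 2, and its probes on the 2 slide types lay on opposite sides. Nup155 had 0.23, 0.21 and 0.11 from its probe on slide type 1 (0.18 ± 0.07, limma adjusted p = 0.0654) and −0.21, −0.31 and −0.19 from that on slide type 2, where it was called (−0.23 ± 0.06, limma adjusted p = 0.00348). Nup93 had −0.15, −0.15 and −0.21 (−0.17 ± 0.04, limma adjusted p = 0.0756), and Nup205 had 0.13, −0.15 and −0.02 (limma adjusted p = 0.878). The outer ring proteins Nup37, Nup43 and Nup160 had means between −0.03 and 0.07 on slide type 1. By treatment, Nup43 had −0.07, 0.10 and 0.07 there, and −0.15, −0.23 and −0.02 on slide type 2 (−0.13 ± 0.10, limma adjusted p = 0.0732). Nup62, in the central channel, had −0.04, −0.17 and −0.09 (−0.10 ± 0.07, limma adjusted p = 0.155), the mean of probes at 0.18 and −0.38. Rae1, which binds mRNA export complexes at the pore, had 0.01 ± 0.03 (limma adjusted p = 0.937).

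**Figure D3:**
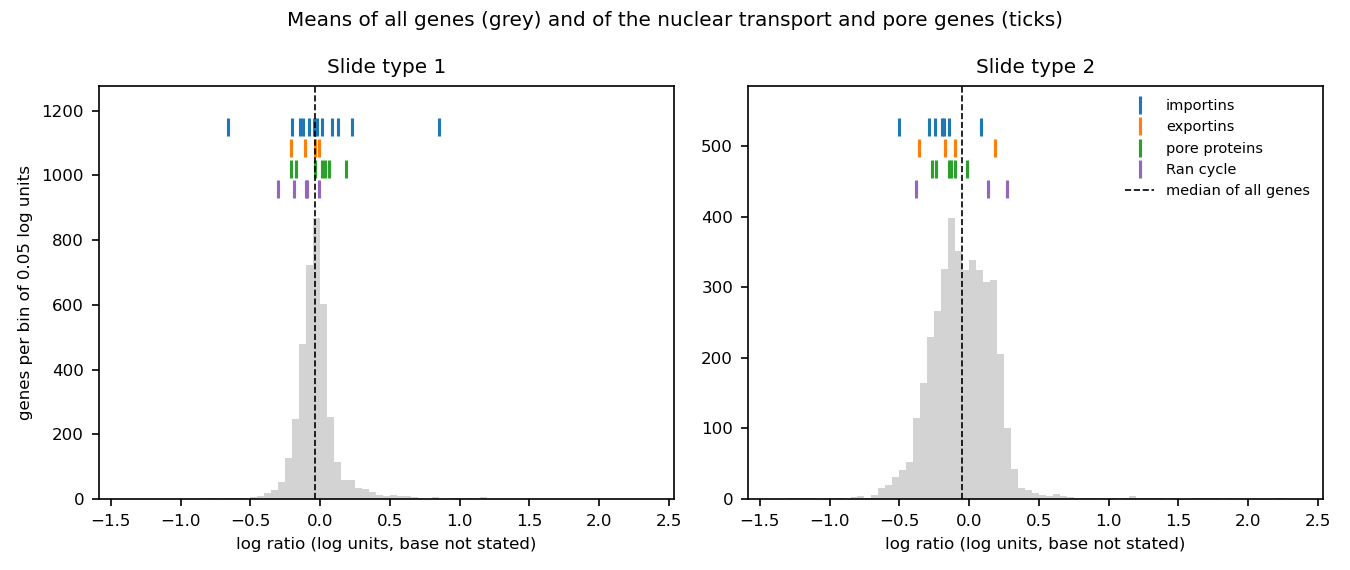
Number of genes (vertical axis) in bins of the mean log ratio (horizontal axis, log units with the base not stated) for all 3838 genes of slide type 1 and all 4075 of slide type 2, in grey, with coloured ticks for the transport and pore genes by role and a dashed line at the median of all genes. The medians of all genes are −0.038 and −0.049, and those of the transport and pore genes −0.041 and −0.16.

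The 6 genes on both slide types were read there by different probes, and treatments with the same number were set against each other. The difference, slide type 1 minus slide type 2, was called for 3 of them, beside 25.5% of the 943 genes on both. For Ipo7 it was 0.90, 0.95 and 1.14 (0.99 ± 0.13, limma adjusted p = 4.22e-05), for Nup155 0.44, 0.52 and 0.30 (0.42 ± 0.11, limma adjusted p = 0.00492), and for Tnpo1 0.28, 0.30 and 0.33 (0.30 ± 0.03, limma adjusted p = 0.0145). The means of Ipo7 and Nup155 thus had opposite sides on the slide types, whereas that of Tnpo1 differed in size on the same side. On slide type 1, however, the 2 probes of Ipo7 had 1.72 and −0.02, and the 3 of Tnpo1 had −0.24, −0.38 and 0.02. The differences of Kpna3 (0.16 ± 0.13, limma adjusted p = 0.129), Nup43 (0.17 ± 0.14, limma adjusted p = 0.125) and Xpo4 (−0.20 ± 0.16, limma adjusted p = 0.0883) were not called. The same 3 genes were called when the numbers were not used to pair the slide types, a fit chosen after seeing the data.

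The size of a value often depended on which channel held the heat-shocked RNA. For channel 1 the transport and pore genes of slide type 2 had a median of −0.11, and for channel 2 one of −0.30, beside −0.035 and −0.12 over all genes. On slide type 1 these medians were 0.017 and −0.10, beside −0.013 and −0.074 over all genes. The 2 channel orders gave opposite signs for 15 of 28 members and 2179 of 3838 genes on slide type 1, and for 8 of 20 members and 2325 of 4075 genes on slide type 2. Kpna2, Ipo7, Kpna4 and Ranbp3 had like values in both orders. Tnpo1 on slide type 2 had −0.10 and −0.90, and Ran −0.12 and −0.64, on the same side in both but of unlike size. All 12 arrays on 1 side were found for 2 of 28 members on the positive side (Ipo7 and Kpna4, beside 3.67% of all genes) and 3 of 28 on the negative side (Kpna2, Ranbp3 and Tnpo1, beside 3.28%) of slide type 1. On slide type 2 this held for 0 of 20 on each side, beside 1.25% and 1.84% of all genes.

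**Figure D4:**
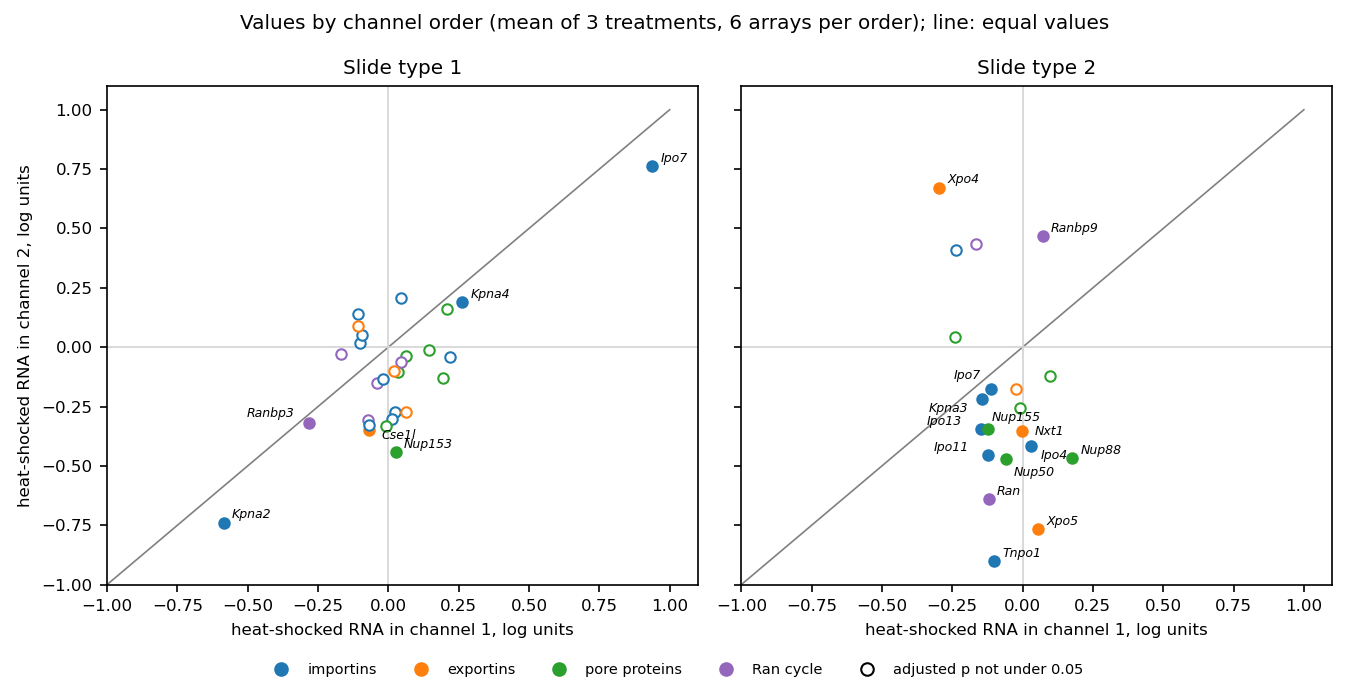
Mean log ratio (log units with the base not stated) of each gene by channel order: heat-shocked RNA in channel 1 on the horizontal axis and in channel 2 on the vertical axis, from 6 arrays each. Filled points are called, and the line marks equal values. Kpna2, Ranbp3, Kpna4 and Ipo7 lie near the line on slide type 1, whereas Tnpo1, Xpo5, Ran and Xpo4 lie far from it on slide type 2.

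Genes that work beside the transport receptors were counted in the same way, and the lists were not tested. Over all genes of slide type 1, 5.73% were called positive and 5.65% negative. Of the mRNA export factors, 1 of 10 was called on slide type 1 (1 positive and 3 negative at an unadjusted limma p under 0.05), the THO subunit Thoc7 at 0.31, 0.36 and 0.40 (0.36 ± 0.04, limma adjusted p = 0.00233). Slide type 2 had 7 of 8 called on the negative side, where 31.9% of all genes were, with a median of −0.23 beside −0.049 over all genes. The lowest was the helicase Ddx39b at −0.53, −0.66 and −0.51 (−0.56 ± 0.08, limma adjusted p = 1.78e-06), and the adaptor Alyref, at −0.13 (limma adjusted p = 0.0787), was the 1 not called. Lamina and nuclear envelope genes were called in 0 of 4 on slide type 1 (1 at an unadjusted limma p under 0.05). Tmpo and Lbr, also read on slide type 2, were among these 4. Tmpo had −0.06 ± 0.10 there (limma adjusted p = 0.576) and Lbr −0.15 ± 0.12 (limma adjusted p = 0.159). On slide type 2, 4 of 7 were called on the negative side (31.9% of all genes), among them Tmpo, a lamina-associated protein, at −0.49 ± 0.04 (limma adjusted p = 5.81e-06) and the lamin B receptor Lbr at −0.37, and 1 on the positive side (18.5% of all genes), the inner membrane protein Lemd3 at 0.29 ± 0.20 (limma adjusted p = 0.00322). Of 6 pore subunits under other names on slide type 1, 1 was called, Seh1l of the outer ring at −0.20 ± 0.06 (limma adjusted p = 0.049), and the 1 on slide type 2, Aaas, had −0.05 (limma adjusted p = 0.507).

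The SUMO pathway, which modifies Rangap1 at the pore, gave 1 negative call among 7 genes on slide type 1, and 2 positive and 2 negative calls among 5 on slide type 2. Over all genes, 5.73% were called positive and 5.65% negative on slide type 1, and 18.5% positive and 31.9% negative on slide type 2. Its ligase Pias1 had −0.28 ± 0.08 on slide type 1 (limma adjusted p = 0.0124) and 0.60 ± 0.05 on slide type 2 (limma adjusted p = 6.9e-07), on opposite sides, while the modifier Sumo2 had −0.38 ± 0.09 there (limma adjusted p = 1e-04). Other transport adaptors were called in 0 of 7 on slide type 1 (2 at an unadjusted limma p under 0.05). On slide type 2, 2 of 3 were called, 1 positive (18.5% of all genes) and 1 negative (31.9% of all genes). Hikeshi, the adaptor that carries Hsp70 into the nucleus in heated cells, had 0.20, 0.29 and 0.12 on slide type 2 (0.20 ± 0.08, limma adjusted p = 0.00927) and 0.08, 0.17 and 0.20 on slide type 1 (0.15 ± 0.06, limma adjusted p = 0.12). It was on the positive side in all 3 treatments on both slide types. Eif5a, a cargo of Xpo4, was called at −0.24 (limma adjusted p = 0.0055).

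The genes most like the called negative members were taken by the distance between values over the 3 treatments. On slide type 1 the 4 such members averaged −0.41, −0.36 and −0.27, and the nearest genes were the RNA helicase Ddx17 (distance 0.0170), the histone mRNA binding protein Slbp (0.0309) and Slc35a4 (0.0410). On slide type 2 the 12 members averaged −0.22, −0.32 and −0.23, and the nearest were the mRNA cleavage factor Cstf1 (0.0109), the kinase Mapk6 (0.0168) and the membrane protein Vapa (0.0204). These distances rest on 3 values per gene.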

How the data were processed

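Total RNA of heat-shocked and control mouse embryos was compared on 24 arrays with 2 channels, 12 per slide type. The deposited tables hold the authors' log ratios, used here as a score because the base of the log and the numerator were not stated. How background was corrected and ratios were normalized was not given in the sources used here. Each table had 7680 probes, 0 missing values and 0 columns not mapped to a sample. Of the probes, 4749 carried 1 symbol, 227 several and 2704 none on slide type 1, and 4935, 275 and 2470 on slide type 2. Without spot intensities, dim and saturated spots entered like the others.

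Which channel held heat-shocked RNA came from the labels, and values were taken as channel 1 over channel 2 with the sign turned where it was in channel 2. The median of all probes of an array was subtracted, the 4 arrays of a treatment were averaged, and a gene is the mean of its probes with 1 symbol. Of the 2 arrays per channel order, 1 carries a suffix B in the slide code, whose meaning is not stated. Means were tested against 0 with limma 3.58.1 in R 4.3.3 (lmFit with an intercept, eBayes, two-sided) with Benjamini-Hochberg adjustment over all genes of a slide type at 0.05, and differences between slide types within treatments over the 943 genes on both. The fit was tested on simulated data made from the spreads of each slide type, where 100 of 100 changes of 0.5 units and 100 of 100 of 1 unit were recovered on each, and 19 of 3638 and 7 of 3875 unchanged genes were called. The simulated noise was independent between genes and had no channel-order part. Changes under 0.5 units, the size of most called values here, were not tried. Alternatives were other centrings, other ways to join arrays or probes, 1 channel order, arrays with or without the suffix, a robust prior, single arrays with a block, and leaving out each treatment.

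The members and lists were chosen with earlier results of these data known. Members with an adjusted p under 0.05, and Ran, Kpnb1, Kpna2, Xpo1, Cse1l, Nup62, Rangap1, Rcc1, Ranbp1 and Ranbp2 whatever their p, were to be given with the value of each treatment, and so were members on both slide types. Other members were given by their means or by treatment. Companion genes were named for their calls, after their values were seen. The cell type lists were of trophoblast, endothelial, erythroid, heart muscle and neural cells, mesenchyme with neural crest, and yolk sac endoderm. Promoter windows were RefSeq's on GRCm38.p6. Figures were drawn with matplotlib 3.10.9.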

Additional observations from a re-analysis of the deposited data

Results flagged for a closer look

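Of 96 sets of 6 arrays, 1 for each gene, slide type and channel order, 2 held an array far from the others by Dixon's test (critical value 0.625), and chance alone marks about 1 in 20. Kpna6 on slide type 1 had 0.52 on an array of treatment 1 with heat-shocked RNA in channel 1, where the other 5 had 0.10 to 0.23 (the sign is as turned). Rae1 on slide type 1 had 0.20 on an array of treatment 3 with heat-shocked RNA in channel 2, where the other 5 had −0.16 to −0.043.

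In the test of the difference between slide types, 3 of 6 genes on both differed: Ipo7 by 0.99, Nup155 by 0.42 and Tnpo1 by 0.30 log units, slide type 1 minus slide type 2, each with the same sign in 3 of 3 treatments. The value of Ipo7 on slide type 1 is the mean of probes at 1.72 and −0.02. The part of the probes in these differences was not tested.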

How the results depend on the processing

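Over 48 values of members and 13 alternatives each, 89 of 624 comparisons lost a call on the same side, 8 more lost a call and turned to the other side, and 21 gained one, while 57 others changed the sign of a value that was called in neither setting. The call of Ipo7 on slide type 1 held in all 13, at 0.76 to 1.15, although none of them tested its dependence on 1 probe, since the median of 2 probes is their mean. The call of Kpna2 held in 12 and was lost without centring (−0.36, limma adjusted p = 0.164). Leaving arrays uncentred moved the median of all genes by 0.30 on slide type 1 and by 0.083 on slide type 2. It left 0 negative calls on slide type 1 (1 at an unadjusted p under 0.05), against 4, and 0 on slide type 2 (2 unadjusted), against 12, and 0 positive ones on slide type 2 (1 unadjusted), against 2. Of all genes, 0.13% were then called negative on slide type 1, and 1.6% negative and 1.87% positive on slide type 2. Uncentred, Cse1l had 0.094, Nup153 0.096 and Ranbp3 0.0032. Centring on probes with 1 symbol gave 2 negative calls on slide type 1 (3.1% of all genes). On slide type 2 it gave 7 negative and 4 positive, where 21.1% of all genes were then negative and 30.7% positive. Arrays with heat-shocked RNA in channel 1 alone gave 2 negative and 4 positive calls on slide type 1 (11.2% and 10.6% of all genes). They gave 0 of each on slide type 2 (0 unadjusted), where 0.147% and 1.08% of all genes were called. With channel 1 alone, Nup153 had 0.026, Ipo4 0.029, Nup88 0.18, Xpo5 0.055 and Xpo4 −0.30. Channel 2 alone gave 2 and 1 on slide type 1 (3.26% and 1.8% of all genes). It gave 0 of each on slide type 2 (6 negative and 3 positive unadjusted), where 0.27% and 0.319% of all genes were called. Of the 14 calls on slide type 2, 8 held in the 10 settings other than these 3: Ipo11, Ipo13, Nup155, Nup50, Ran, Ranbp9, Tnpo1 and Xpo5. Arrays without suffix B gave 3 negative and 1 positive calls on slide type 1 (4.66% and 5.03% of all genes). On slide type 2 they gave 8 negative and 3 positive calls (28.7% and 15% of all genes). Arrays with suffix B gave 1 negative and 1 positive on slide type 1 (1.95% and 3.67% of all genes). On slide type 2 those gave 10 negative and 1 positive (27.7% and 14.2% of all genes). Leaving out 1 treatment gave 1 (without treatment 1) to 6 (without treatment 3) negative calls on slide type 1, beside 1.38% to 6.38% of all genes. It gave 1 to 2 positive calls there, beside 3.26% to 5.08%. On slide type 2 it gave 7 (without treatment 3) to 9 negative calls, beside 22.9% to 30.1% of all genes. Positive calls there were 1 to 3, beside 7.19% to 24.1%. The calls between slide types (3 of 6, beside 25.5% of all genes) became 5 without centring (68% of all genes) and 5 with the median of arrays (37%). They became 1 with channel 1 alone (6.68%) and 1 with channel 2 alone (5.2%). Without 1 treatment there were 3 to 4 (13% to 26.6%). Single arrays with the treatment number as a replicate block gave 8 negative and 2 positive calls on slide type 1 (12.3% and 7.53% of all genes). On slide type 2 they gave 12 and 2 (35.5% and 17.6%). The correlation fitted between arrays of the same treatment was 0.065 on slide type 1 and −0.20 on slide type 2. A value below 0 narrows the error of a mean, so the calls kept there are no separate support. Deviations of same-numbered treatments on the 2 slide types correlated at 0.0866, 0.245 and 0.241 over 943 genes, each treatment best with its own number, so only a number is taken as shared. A fit between slide types with no replicate block, chosen after seeing the data, called the same 3. The causes of these shifts were not tested.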

Other observations

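Probes with 2 symbols entered no gene value. A probe for Ranbp1 and its neighbour Dgcr8 had −0.32, −0.40 and −0.23 in treatments 1, 2 and 3 on slide type 2 (mean −0.32 ± 0.09), and another had −0.17, −0.15 and 0.07 on slide type 1 (−0.08 ± 0.14), where the single-symbol probe of Ranbp1 had −0.10 ± 0.22. The probe shared by the mRNA export receptor Nxf1 and Tmem223 had 0.06, −0.18 and −0.08 on slide type 1. The probe shared by Ranbp9 and Nol7 had −0.04, 0.08 and −0.06 there, whereas the single-symbol probe of Ranbp9 on slide type 2 had 0.27 ± 0.05. These values were not tested.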
